A study of Mus musculus with 3 samples.

Results

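Mitochondrial carriers are transporters of the inner mitochondrial membrane, most of them products of the Slc25 family, and their expression was examined in endothelial cells of the adult mouse kidney cortex. The genes taken were all those named Slc25a with a number, together with the uncoupling proteins Ucp1, Ucp2 and Ucp3 and the pyruvate carrier subunits Mpc1 and Mpc2. The RefSeq gene table holds 52 such genes, and 49 of them had a probeset assigned to 1 gene, out of 19938 genes measured in this way. Ucp2 and Mpc2 were among those not analysed here.

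The 3 samples form 1 group. Each came from 1 kidney, not pooled, of an adult mouse of unknown sex on a mixed, mainly CD-1 background, carrying the transgene Tg(TIE2GFP)287Sato, in which the promoter of Tek (Tie2) drives GFP. The medulla was removed, glomeruli were kept back on a 40 µm mesh, the remaining tissue was digested with collagenase and trypsin, and GFP-positive cells were sorted before RNA was amplified and hybridised to Affymetrix Mouse Gene 1.0 ST arrays. Embryonic kidneys, the medulla, glomeruli and db/db mice, which the study also covered, were not analysed here, and there was no group to set these cells against.

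The inner mitochondrial membrane is closed to most solutes, and each carrier exchanges or imports a small class of them, such as ADP for ATP, phosphate, citrate, amino acids, cofactors or iron. Carrier proteins are encoded in the nucleus and made in the cytosol, and they pass the outer membrane through the TOM complex and are inserted into the inner membrane by the TIM22 complex. Endothelial cells are known to draw much of their ATP from glycolysis, whereas proximal tubule cells of the same cortex are rich in mitochondria.

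The ADP/ATP carriers Slc25a4 and Slc25a5 and the phosphate carrier Slc25a3 together supply ATP synthase with its substrates and pass its product out, and all 3 were above the limit of the test described further on. Their promoters, chosen after the values had been seen, are shown to set this group of carriers side by side, from 250 bases before to 50 bases after the start of the gene, 5′ to 3′ on the strand of the gene, from the RefSeq table for GRCm38.p6. Capitals mark matches, on either strand, to the motif GCGCANGCG of the regulator NRF1 or to CCGGAAG, a core of the ETS factors to which GABPA belongs. The intervals are chr10:91123918-91124217 on the minus strand for Slc25a3, chr8:46211013-46211312 on the minus strand for Slc25a4 and chrX:36795347-36795646 on the plus strand for Slc25a5.
Slc25a3: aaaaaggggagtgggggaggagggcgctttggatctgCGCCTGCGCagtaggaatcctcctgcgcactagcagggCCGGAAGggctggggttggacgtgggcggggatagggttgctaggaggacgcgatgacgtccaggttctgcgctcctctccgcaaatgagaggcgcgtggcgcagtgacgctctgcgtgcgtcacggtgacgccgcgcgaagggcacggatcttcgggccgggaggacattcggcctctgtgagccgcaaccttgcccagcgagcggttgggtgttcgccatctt
Slc25a4: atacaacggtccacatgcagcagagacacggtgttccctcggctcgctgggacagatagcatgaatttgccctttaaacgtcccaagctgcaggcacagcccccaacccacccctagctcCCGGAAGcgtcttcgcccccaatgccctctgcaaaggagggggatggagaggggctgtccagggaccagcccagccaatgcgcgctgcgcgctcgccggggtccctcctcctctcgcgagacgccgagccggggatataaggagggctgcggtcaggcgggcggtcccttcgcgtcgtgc
Slc25a5: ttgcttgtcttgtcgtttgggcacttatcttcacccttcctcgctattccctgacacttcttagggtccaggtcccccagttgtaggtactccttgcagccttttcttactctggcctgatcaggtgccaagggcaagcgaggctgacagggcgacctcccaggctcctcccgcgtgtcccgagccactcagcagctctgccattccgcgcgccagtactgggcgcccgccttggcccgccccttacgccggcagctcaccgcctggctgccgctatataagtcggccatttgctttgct

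The Slc25a3 window held 1 match to each motif, the Slc25a4 window held 1 match to CCGGAAG, and the Slc25a5 window held neither. Of the 49 carriers, 39 had an entry in the promoter table. CCGGAAG stood in 8 of these 39 windows (20.5%), those of Mpc1, Slc25a3, Slc25a4, Slc25a17, Slc25a20, Slc25a25, Slc25a38 and Slc25a54, against 9.12% of the windows of all 27025 genes in the table and 12.5% of those of genes on the array. The motif was shared by carriers above, below and near the limit of the test. GCGCANGCG stood in 2 of the 39 windows (5.13%), those of Slc25a3 and Slc25a31, against 6.47% of all genes and 9.66% of those on the array. AAGGTCA, the core bound by estrogen-related receptors, stood in 1 of them (2.56%), that of Slc25a34, against 4.66% of all genes and 3.79% of those on the array. Among genes above the limit of the test, 18.9% of windows held CCGGAAG, 15.8% GCGCANGCG and 3.06% AAGGTCA. Of the 8 carriers above it with an entry, 2, 1 and 0 held these motifs. No motif overlapped another in the printed windows. A match is a match of letters only, and binding was not measured.

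Each gene was tested against a signal of 100, the raw level that the study's methods used as a minimum, which is 6.64 on the log2 scale. The study asked for that raw level in 3 samples, whereas the mean of the deposited, already normalized values was tested here. Whether the scales match is not stated. A gene was called above or below when its mean over the 3 samples passed a one-sided limma test with Benjamini-Hochberg adjustment over all 35557 probesets at an adjusted p of 0.05, and neither otherwise. Of the 49 carriers, 10 were above (20.4%), against 22.9% of all genes. Below were 30 carriers (61.2%), against 65% of all genes. Both shares lay near those of all genes. The remaining 9 carriers were neither, beside 2414 of the 19938 genes. The median log2 signal was 5.97 over the carriers and 5.88 over all genes. At an unadjusted p of 0.05 12 carriers were above and 31 below, beside 5291 and 13093 of the 19938 genes. Nothing in the labels says how far the 3 samples were handled apart, so the p-values measure the spread between these samples. Where all 3 values were equal there was no such spread, and the p-value rested on the spread that the fit pooled over probesets. Fits with a sample left out had fewer values per gene, and 16.7% to 17.1% of all genes were then above. A call lost in such a fit does not tell the sample left out apart from the smaller number of samples.

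**Figure D1:**
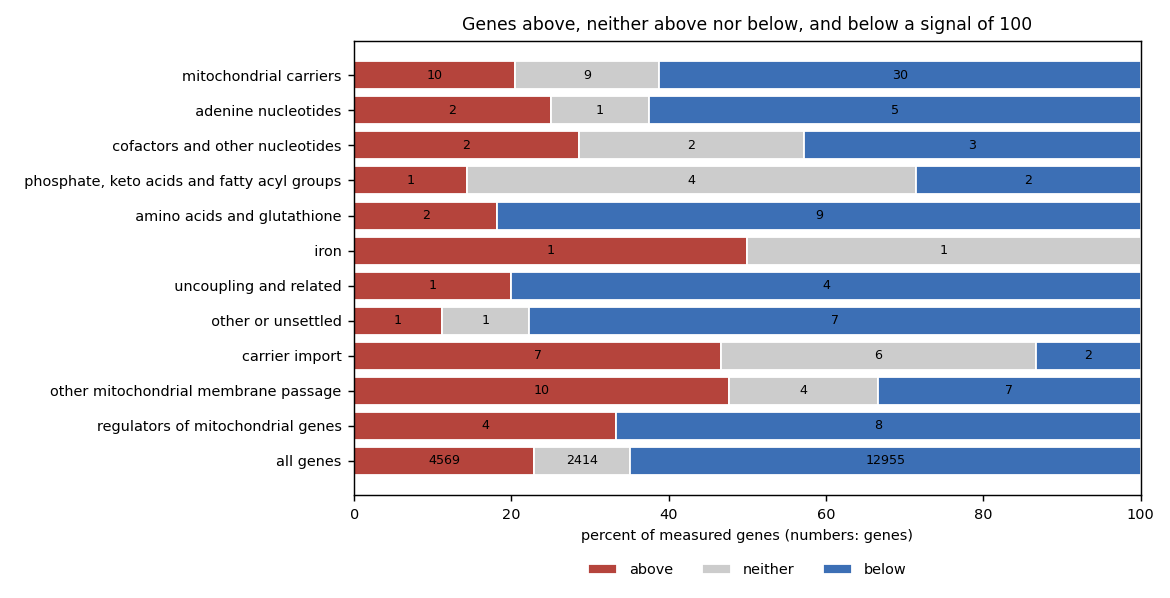
Share of genes (percent of measured genes, x axis) whose mean signal over the 3 samples was above 100 (red), neither (grey) or below 100 (blue) by limma, for the 49 carriers, their 7 roles, 3 related lists and all 19938 genes; numbers in the bars count genes. The carriers divide into 10, 9 and 30 genes, and their red bar reaches 20.4%, against 22.9% for all genes.

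All 3 samples carried the endothelial label in their RNA. All 14 endothelial markers were above 100, and Pecam1, an adhesion molecule of endothelial junctions, gave 10.09, 10.09 and 10.05 log2 units in replicates 1, 2 and 3. Of 12 proximal tubule markers 9 were above and 0 below, and all 12 had a signal of at least 100 in each of the 3 samples. After quantile normalization 11 were above. When replicates 1, 2 and 3 were left out in turn, 7, 8 and 5 were above. The undecided markers were Slc5a2, Slc7a13 and Hnf4a. The summed signal of these 12 was 16593, 13721 and 14111 in the same order, beside 13315, 13677 and 11301 for the endothelial markers. Kap alone had a geometric mean signal of 7460. Sums over different probesets do not give the shares of the cell types. Of 5 thick ascending limb markers 2 were above, of 7 markers of the distal tubule and collecting duct 3, and of 7 markers of smooth muscle and pericytes 1. All 7 leukocyte, 3 podocyte and 2 red cell markers that were measured were below. The paper found that genes specific to its cortical endothelial cells resembled a proximal tubule profile, which it read as minor contamination. The carriers are expressed in tubule cells as well, and the part of tubule RNA in their signals was not tested. In bulk samples, fewer cells of a type and less RNA per cell cannot be told apart.

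Of the 8 adenine nucleotide carriers 2 were above, 5 below and 1 neither. For this role and those that follow, the shares of all genes were 22.9% above and 65% below, and each role holds few carriers. Slc25a4, known as ANT1 and the ADP/ATP carrier of heart and muscle, gave log2 signals of 10.41, 10.35 and 10.75 for replicates 1 to 3, a mean of 10.50 ± 0.22 (SD, n = 3), and was above (limma, adjusted p = 0.00173). Slc25a5, or ANT2, the form of many dividing and non-muscle cells, had 10.79, 10.67 and 10.59, a mean of 10.69 ± 0.10 (SD, n = 3), and was above as well (limma, adjusted p = 0.00036). Every sample lay far above the limit for both genes. Slc25a5 had other probesets, with 10.72, 10.63 and 10.62 and with 8.55 in each sample, and both were above. ADP/ATP carriers are close in sequence, and whether the probes of one also detect another was not tested.

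Slc25a31, or ANT4, which serves male germ cells, was below with a log2 signal of 3.79 in all of them. The ATP-Mg/phosphate carriers, which load the matrix with adenine nucleotides, were all below. Slc25a23 had 5.81 in each sample, Slc25a24 had 6.42 in each, Slc25a25 had 5.84, 5.84 and 6.19, and Slc25a41 averaged 4.88 ± 0.04 (SD, n = 3). The call of Slc25a25 (limma, adjusted p = 0.0141) was lost without replicate 1 or without replicate 2, with an adjusted p of 0.09 in each case. Slc25a17, which carries CoA, FAD and related nucleotides across the peroxisomal membrane, had 7.47, 6.69 and 5.75 and was neither above nor below, the samples standing on both sides of the limit.

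Among the carriers of cofactors and of other nucleotides 2 of 7 were above. Slc25a51, the carrier of NAD+, had 8.50, 8.43 and 8.59 (limma, adjusted p = 0.00109). Slc25a36, a pyrimidine nucleotide carrier, had 8.89, 8.74 and 8.87 and a mean of 8.83 ± 0.08 (SD, n = 3; limma, adjusted p = 0.000765). A further probeset of Slc25a36 had 7.73, 7.70 and 7.33 and was also above. Its main probeset missed the threshold without replicate 3 (adjusted p = 0.0597). Slc25a33, the other pyrimidine nucleotide carrier, had 3.92 in each sample and was below, so the 2 genes of this function fell on opposite sides of the limit.

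Slc25a32, the carrier of folate and FAD, gave the widest spread among the 49. Its log2 signals were 6.83 in replicate 1 and 8.71 in each of replicates 2 and 3, all of them above 6.64, but the mean of 8.08 ± 1.09 (SD, n = 3) did not pass the test (limma, adjusted p = 0.24). Without replicate 1 it was above (limma, adjusted p = 0.000552), a call that rests on the equal values of the remaining samples. Slc25a16, linked to CoA in the matrix, had 6.90, 7.02 and 6.62 and was neither. Slc25a42, a CoA carrier, had 5.91 in each sample and was below. Slc25a26, which brings in S-adenosylmethionine for methylation, had 5.27, 5.67 and 5.19 and was below (limma, adjusted p = 0.00671), a call lost without replicate 1 (adjusted p = 0.0622) and without replicate 3 (adjusted p = 0.0799).

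The carriers of phosphate, keto acids and fatty acyl groups were undecided in 4 of 7 cases, beside 2414 of the 19938 genes. Slc25a3, the phosphate carrier, was above with 10.16, 10.24 and 10.16 and an adjusted p of 7.63e-05 by limma. Mpc1, a subunit of the pyruvate carrier through which the end product of glycolysis enters the matrix, had 8.41, 7.83 and 9.11. Each of its samples exceeded the limit by more than 1 log2 unit, yet their spread of 0.64 (SD, n = 3) left the mean of 8.45 short of the threshold (limma, adjusted p = 0.0609). Slc25a11, the oxoglutarate/malate carrier of the malate-aspartate shuttle, had 7.48, 7.70 and 8.75, likewise all over the limit and not called (limma, adjusted p = 0.121).

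Slc25a1, which exports citrate for fatty acid synthesis, stood at the limit with 6.60, 6.56 and 6.78. Slc25a20, the carnitine/acylcarnitine carrier that fatty acid oxidation depends on, had 6.29, 5.94 and 7.03 and was neither. Both genes thus had their lowest log2 signal in replicate 2 and their highest in replicate 3. Slc25a10, the dicarboxylate carrier, had 6.64 in each sample, a mean only 0.01 below the limit. It was called below because the 3 values were equal (limma, adjusted p = 0.00136), and when it was given the spread of other probesets the adjusted p was 0.679. Slc25a21, the oxodicarboxylate carrier of lysine and tryptophan breakdown, had 4.36 in each sample and was below.

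Of the 11 carriers of amino acids and glutathione 2 were above and 9 below. The aspartate/glutamate carriers, which complete the malate-aspartate shuttle, fell on opposite sides of the limit. Slc25a12 (aralar) had 7.11, 7.10 and 7.10 and was above (limma, adjusted p = 7.4e-06), while Slc25a13 (citrin) had 6.62 in each sample and was below. The distance of Slc25a13 from the limit was 0.02 on the log2 scale and its call rested on the equal values, since with the spread of other probesets the adjusted p was 0.602. Slc25a39, needed for mitochondrial glutathione, had 7.55, 7.42 and 7.60 and was above (limma, adjusted p = 0.00583), a call lost without replicate 1 (adjusted p = 0.0954) and without replicate 3 (adjusted p = 0.118). Its relative Slc25a40 was below in both of its probesets, with 5.48 in each sample in one and 4.00, 4.25 and 4.25 in the other.

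The glutamate carriers Slc25a18, with 5.46 in each sample, and Slc25a22, with 5.51, 5.58 and 5.58, were below. So were the ornithine carriers Slc25a15 and Slc25a2, whose means were 6.07 and 4.85, and Slc25a29, a carrier of basic amino acids with a mean of 5.90. Slc25a38, which supplies glycine for heme synthesis, had 5.79, 5.81 and 5.23 and was below (limma, adjusted p = 0.0167), a call lost without replicate 1 (adjusted p = 0.0827) or replicate 2 (adjusted p = 0.0791). Slc25a44, a carrier of branched-chain amino acids, had 6.48 in each sample and was below, but not with the spread of other probesets (adjusted p = 0.163).

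The mitoferrins import iron for heme and iron-sulfur clusters. Slc25a28, the form of most tissues, had 7.37 in each sample and was above (limma, adjusted p = 1.77e-06). Slc25a37, the form of red cell precursors, had 6.43, 6.43 and 6.08, all under the limit, and was neither (limma, adjusted p = 0.06 for a mean below). It was called below without replicate 3, where the remaining values are equal.

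Of the uncoupling proteins and their relatives only Slc25a30 was above among the 5 measured. Slc25a30, named a kidney mitochondrial carrier when it was described, had 8.28, 8.28 and 7.99 and a mean of 8.18 ± 0.17 (SD, n = 3; limma, adjusted p = 0.00634), a call lost without replicate 1 (adjusted p = 0.0913) or replicate 2 (adjusted p = 0.0898). Ucp1, which makes heat in brown fat, had 3.59 in each sample, and Ucp3, a protein of muscle, had 4.58 in each. Both were below, as were Slc25a14 and Slc25a27, which are found mainly in brain, with means of 5.48 and 5.97.

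Of 9 carriers with other or unsettled substrates 1 was above. Slc25a46, a protein of the outer membrane that takes part in mitochondrial fission, had 7.07 in each sample and was above (limma, adjusted p = 2.5e-06), but not with the spread of other probesets (adjusted p = 0.0605). Slc25a45 had 6.72, 7.07 and 7.53, all over the limit, and was neither (limma, adjusted p = 0.304). Below were Slc25a34, with 4.87 in each sample, Slc25a35, with 5.30, 5.29 and 5.30, Slc25a43, with 5.81, 5.81 and 5.98, and Slc25a47, Slc25a48, Slc25a53 and Slc25a54, with means of 5.75, 5.84, 4.50 and 4.59.

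**Figure D2:**
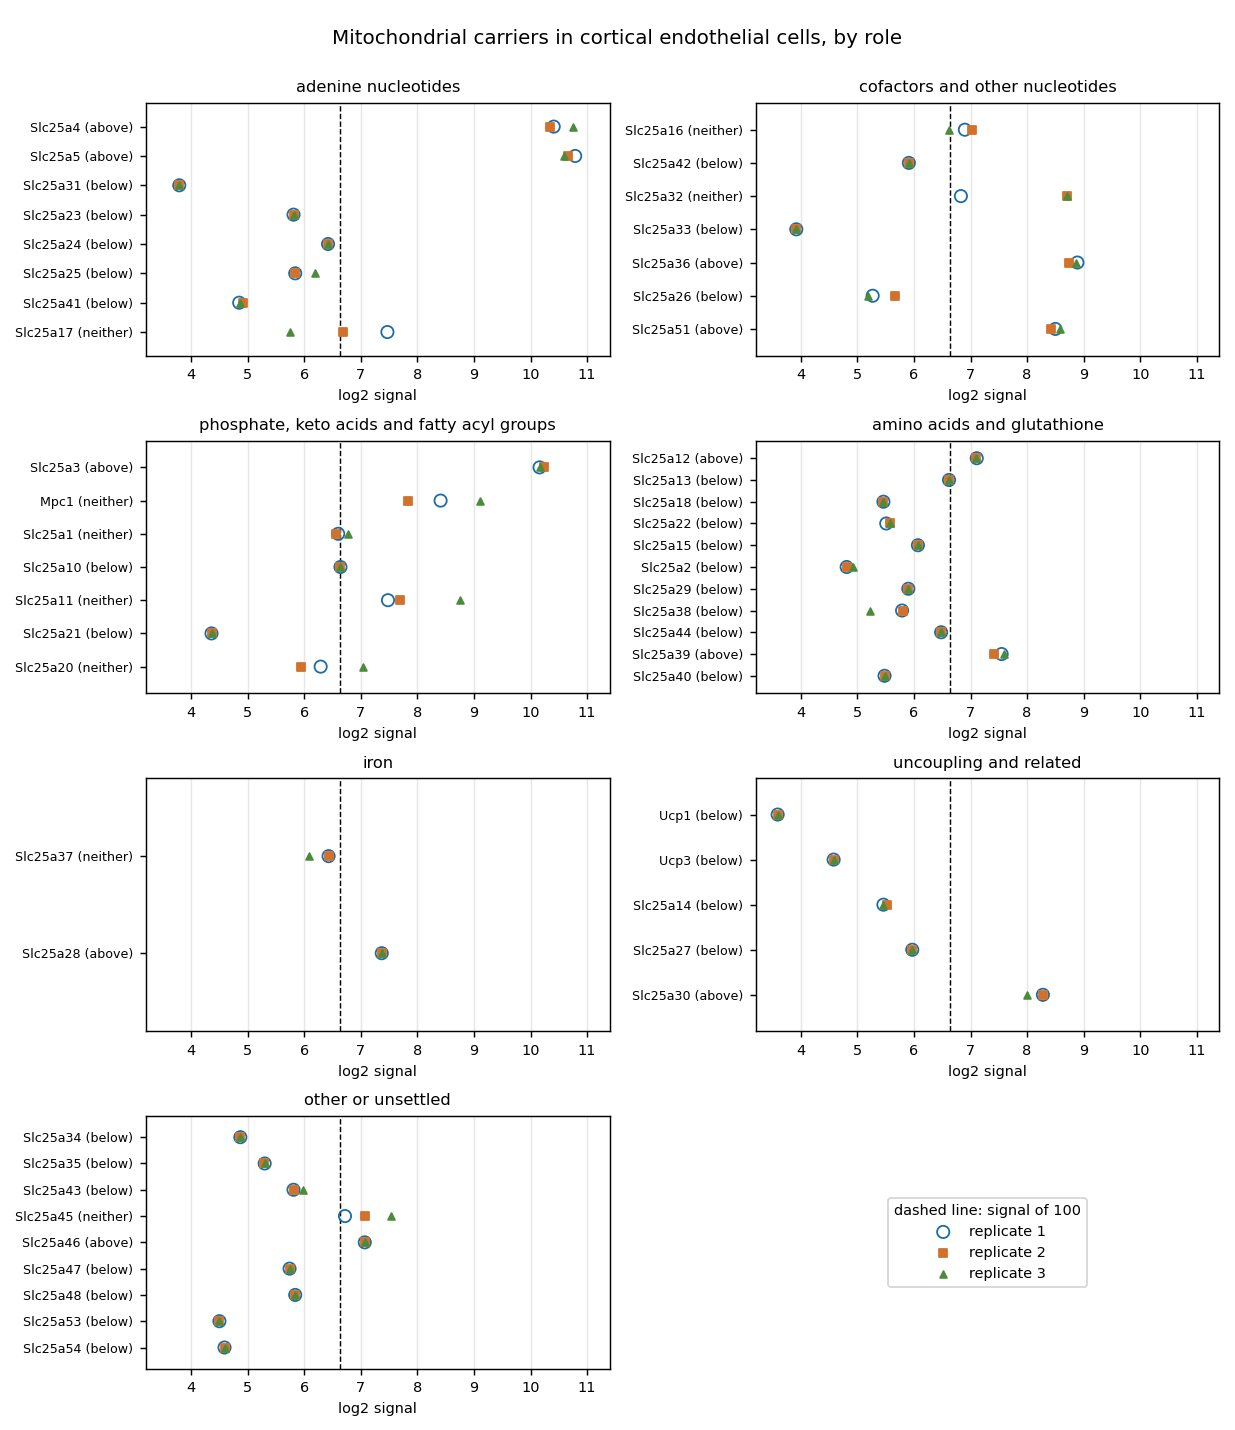
Log2 signal (x axis) of each of the 49 carriers in replicates 1 (circle), 2 (square) and 3 (triangle), in 7 panels by role, with the call beside the symbol and a dashed line at a signal of 100, 6.64 on the log2 scale. Slc25a3, Slc25a4 and Slc25a5 lie at log2 signals over 10, and Slc25a32, Slc25a17, Mpc1, Slc25a11 and Slc25a20 show the widest gaps between samples.

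Many carriers had the same value to 5 decimals in all 3 samples, 21 of 49 (42.9%), against 51.2% of all genes. Equal values were found in 2 of the 10 carriers above and in 19 of the 30 below, and over all genes in 1679 of 4569 above and 8518 of 12955 below. With the spread of other probesets for equal values, 11 carriers were above and 28 below, beside 21.1% and 62.2% of all genes. The calls of Slc25a10, Slc25a13, Slc25a44 and Slc25a46 were lost in this way. Mpc1 and Slc25a11 became above (adjusted p = 0.0162 and 0.043 by limma) and Slc25a37 below (adjusted p = 0.038). The genes that gained a call did not have equal values and kept their own spread. Their adjusted p moved because the fit pools spread, and adjusts p, over all probesets.

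The spread between the 3 samples lay in few carriers. A range of at least 1 log2 unit was found in 5 of 49 carriers (10.2%), against 4.33% of all genes. These were Slc25a32 with 1.88, Slc25a17 with 1.72, Mpc1 with 1.28, Slc25a11 with 1.27 and Slc25a20 with 1.09. Among genes averaging a signal of at least 100, 3 of 16 carriers (18.8%) had such a range, against 9.6% of 6127 genes, whereas a range of at least 0.5 was found in 4 of 16 (25%), against 26.7%. The median range over the 16 carriers was 0.21 and over the 6127 genes 0.18, so most carriers varied little, as most genes did.

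The deviation of each carrier from its own mean shows how the samples lay. Over the 16 carriers its median was -0.002, -0.023 and 0.054 log2 units in replicates 1, 2 and 3. Replicate 3 alone held the highest value in 7 of them, replicate 1 in 3 and replicate 2 in 2, and the lowest value stood alone in replicate 2 in 6 and in the other samples in 3 each. With ties counted as well, replicate 3 held the highest value in 8 of the 16 carriers and in 1738 of the 6127 genes. After quantile normalization the medians over the carriers were -0.033, -0.025 and 0.095. Replicate 3 then held the highest value, ties again counted, in 12 of the 16 carriers and in 3756 of the 6127 genes. The medians over these genes were -0.026, -0.006 and 0.033. Among the carriers of phosphate, keto acids and fatty acyl groups, the deposited values of the 4 that averaged at least 100 had medians of -0.041, -0.183 and 0.396.

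The same deviations were taken for the marker lists. Their medians were 0.133, -0.131 and 0.048 for the 12 proximal tubule markers, -0.506, -0.312 and 0.926 for the smooth muscle and pericyte markers with a mean of 100 or more, and 0.027, 0.005 and -0.035 for the 14 endothelial markers. They were 0.373, -0.340 and 0.149 for the 4 of 5 thick ascending limb markers averaging at least 100. For the 5 of 7 markers of the distal tubule and collecting duct that did so they were 0.063, -0.318 and 0.207. Replicate 2 thus had the lowest median over each of the 3 tubule lists. Single markers did not all follow, since Kap, Slc7a13 and Cldn10 were lowest in replicate 3. So was Cldn16, which averaged under 100. The summed signal of the 7 smooth muscle and pericyte markers was 3510 in replicate 3, against 1640 and 1647 in replicates 1 and 2. The markers of the distal tubule and collecting duct also had their highest median in replicate 3. Of the 5 carriers with a range of at least 1 log2 unit, Slc25a11, Mpc1 and Slc25a20 were highest in that sample. Slc25a17 was lowest there, and Slc25a32 had equal values in replicates 2 and 3. The part of smooth muscle, pericyte or tubule cells in the spread of the carriers was not tested.

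**Figure D3:**
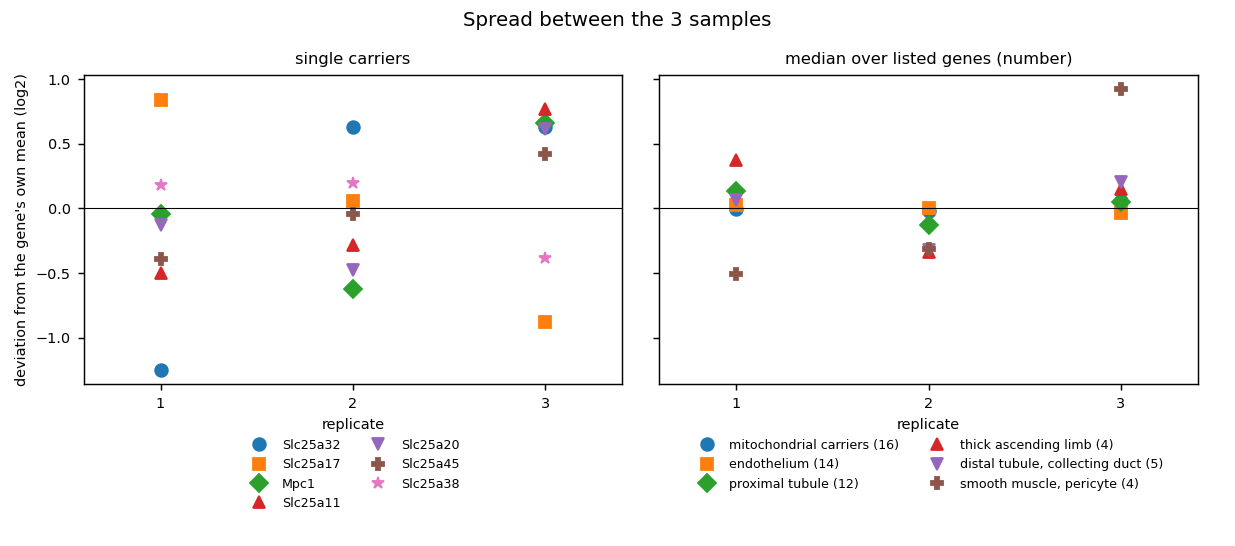
Deviation of the log2 signal from the gene's own mean (y axis) in replicates 1 to 3 (x axis), for the 7 carriers with a range of at least 0.5 (left) and as the median over the carriers and the marker lists, for genes averaging at least 100 (right). Slc25a32 is low in replicate 1 alone, and the smooth muscle and pericyte markers reach a median of 0.926 in replicate 3 while the carriers stay between -0.023 and 0.054.

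The machinery that inserts carriers into the inner membrane had 7 of 15 genes above (46.7%), 2 below and 6 neither, beside 22.9% and 65% of all genes. Tomm70a, the outer membrane receptor for carrier precursors, had 7.45, 7.62 and 7.47, and Tomm20, a receptor for proteins with a presequence, had 7.54, 7.41 and 7.40, and both were above. These calls were lost without replicate 3 (adjusted p = 0.139 for Tomm70a and 0.114 for Tomm20 by limma), that of Tomm70a also without replicate 1 and that of Tomm20 also without replicate 2. Tomm22, which links the receptors to the pore, had 6.42, 6.37 and 7.24 and was neither. The genes below were Tomm40, the pore itself, with 6.56 in each sample, and Timm29, a subunit of TIM22, with 6.02 in each. The call of Tomm40 was lost with the spread of other probesets (limma, adjusted p = 0.365). Timm10, a chaperone that guides carriers between the membranes, had 7.69, 7.78 and 9.25 and was neither.

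Other genes of passage across the mitochondrial membranes were above in 10 of 21 cases (47.6%), below in 7 and neither in 4. The outer membrane channels were all above, Vdac1 with 8.92, 8.73 and 9.04, Vdac2 with 10.25, 10.68 and 10.68 and Vdac3 with 9.23, 10.23 and 9.59. Mtch1, a carrier-like protein of the outer membrane, had 8.82, 7.99 and 8.33 and was above. The calls of Vdac3 and Mtch1 were lost whichever sample was left out, with adjusted p of 0.0598 to 0.211 for Vdac3 and 0.103 to 0.288 for Mtch1 by limma. That of Vdac1 was lost without replicate 1 or 3 and that of Vdac2 without replicate 2 or 3. The 4 undecided genes were Cpt2, a carnitine palmitoyltransferase that acts next to Slc25a20 in fatty acid oxidation, with 7.76, 6.85 and 8.48, Sfxn4, with 5.45, 6.53 and 5.41, and the calcium uniporter subunits Micu2, with 6.10, 7.23 and 7.46, and Smdt1, with 10.03, 13.04 and 9.79. Smdt1 had a range of 3.25, set by replicate 2 alone, and without that sample Smdt1 was above (adjusted p = 0.0329) and Sfxn4 below (adjusted p = 0.00406) by limma.

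Of 12 regulators of mitochondrial genes 4 were above (33.3%) and 8 below. Ppargc1a, a coactivator of mitochondrial biogenesis, had 8.40, 8.28 and 8.40 and was above, but its other probeset had a mean 0.17 log2 units under the limit and was neither. The call was also lost without replicate 3 (limma, adjusted p = 0.061). Its relatives Ppargc1b, with 5.94, 5.83 and 5.94, and Pprc1, with 6.37, 6.48 and 6.35, were below, Pprc1 not without replicate 1 (limma, adjusted p = 0.0997) or 3 (adjusted p = 0.117). Gabpa had 9.05 in each sample, and the mitochondrial DNA factors Tfam, with 7.54 in each, and Tfb2m, with 7.40, 7.40 and 7.41, were also above. Nrf1 had 6.26 in each sample and Esrra, an estrogen-related receptor, had 6.46 in each, and both were below, Esrra not with the spread of other probesets (limma, adjusted p = 0.14). Over the 3 lists 21 of 48 genes were above and 17 below. When replicates 1, 2 and 3 were left out in turn, 13, 15 and 8 of these genes were above, while the share of all genes above was 16.7%, 17.1% and 16.8% with the same samples left out.

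**Figure D4:**
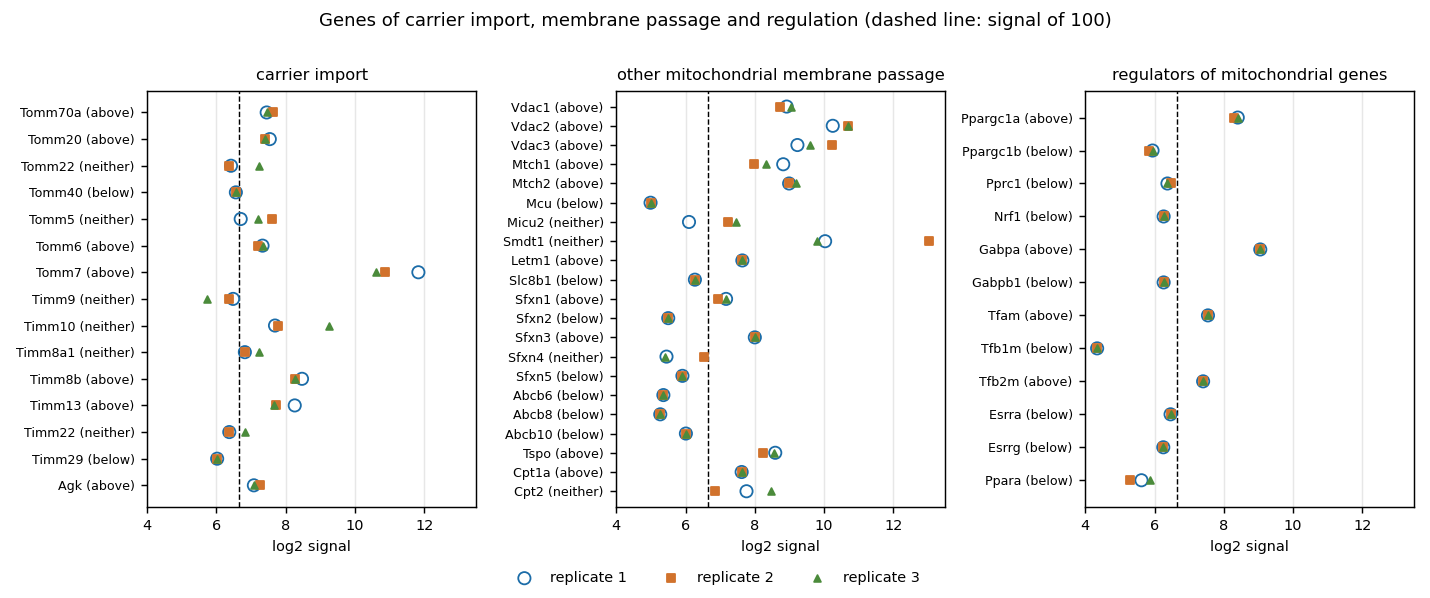
Log2 signal (x axis) of the 15 genes of carrier import, 21 of other membrane passage and 12 regulators in replicates 1 (circle), 2 (square) and 3 (triangle), with the call beside the symbol and a dashed line at a signal of 100. Vdac1, Vdac2 and Vdac3 lie right of the line in all 3 samples, Smdt1 is far to the right in replicate 2 alone, and 8 of the 12 regulators lie left of it.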

How the data were processed

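Gene expression was measured on Affymetrix Mouse Gene 1.0 ST arrays in 3 samples. The values deposited by the authors were log2 signals per probeset and sample, already normalized. RMA in GeneSpring GX is named in the paper and Affymetrix Expression Console in the submitters' processing notes. The version of the program, and which arrays were normalized as a set, are not stated there. Of 35557 probesets, 21789 had 1 gene, 1621 several and 12147 none in the platform annotation. The column medians were 5.70, 5.70 and 5.66. The precision is limited by the number of samples, since arrays give no counts.

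A gene was taken at its probeset of 1 gene with the highest mean. limma 3.58.1 (R 4.3.3) fitted an intercept-only model of log2 signal minus 6.64 with a mean-variance trend, tested one-sided each way. It had 2 residual and 0.297 prior degrees of freedom. The fit was also run on simulated data. No simulated probeset had equal values, so that run cannot show how equal values affect the calls. Counts used pandas 2.3.3 in Python 3.11.15. Levels of single genes were set against the limit, not against each other. Sums and medians over lists combine different probesets.

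Every carrier is named. Values per sample are given for the first 4 carriers of each role, the undecided ones, the 5 with the largest range, those with several probesets, and further carriers whose value a statement needs. Of other lists up to 4 genes are named in list order, and all genes of a count of 5 or fewer. Timm10 and Esrra were added after their values had been seen. Promoters replaced the protein sequences planned. The carriers, lists and tests were chosen with earlier results of these data known. Alternatives were limits of 50 and 200, all 3 samples on 1 side of 100 with no test, quantile normalization, equal column medians, no trend, the spread of other probesets for equal values, a minimum mean log2 of 5, the probeset with the lowest mean, probesets of several genes admitted, and each sample left out.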

Additional observations from a re-analysis of the deposited data

How the results depend on the processing

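The counts moved with the limit and with the samples. With a limit of 50, 29 carriers were above and 14 below, and with 200, 5 were above. Of all genes 51.3% were above 50 and 9.37% above 200. Over the 48 genes of import, passage and regulation, 38 were above and 5 below a limit of 50, and 8 above and 30 below one of 200. Leaving out a sample gave 8 to 9 carriers above, 27 to 30 below, 8 to 15 genes of the other lists above and 5 to 8 of 12 proximal tubule markers above. A minimum mean log2 of 5 left 20 carriers below, since 10 dropped out. Of single-gene values, 881 kept direction and side of the threshold, 62 passed it only under an alternative, 45 lost it and 42 changed sign. A change of limit shifts the mean minus the limit by the same amount in every gene. The changes of sign under limits of 50 and 200 therefore follow from the means alone. Against a limit of 200, the mean minus the limit, in log2 units, turned to -1.0 for Slc25a1, -0.54 for Slc25a12, -0.80 for Slc25a16, -0.28 for Slc25a28, -0.12 for Slc25a39, -0.54 for Slc25a45, -0.57 for Slc25a46, -0.13 for Tomm70a, -0.19 for Tomm20, -0.97 for Tomm22, -0.72 for Micu2, -0.10 for Tfam, -0.24 for Tfb2m and -0.30 for Hnf4a. Against 50 it turned to 0.99 for Slc25a10, 0.98 for Slc25a13, 0.43 for Slc25a15, 0.99 for Slc25a17, 0.78 for Slc25a20, 0.16 for Slc25a23, 0.77 for Slc25a24, 0.31 for Slc25a25, 0.33 for Slc25a27, 0.26 for Slc25a29, 0.67 for Slc25a37, 0.26 for Slc25a42, 0.22 for Slc25a43, 0.83 for Slc25a44, 0.10 for Slc25a47, 0.20 for Slc25a48, 0.92 for Tomm40, 0.38 for Timm29, 0.15 for Sfxn4, 0.26 for Ppargc1b, 0.76 for Pprc1, 0.62 for Nrf1 and 0.82 for Esrra. Against 100 it turned to -0.17 for Ppargc1a at the probeset with the lowest mean, and over the samples left out in turn it ran between -0.06 and 0.05 for Slc25a1, between -0.43 and 0.43 for Slc25a17, between -0.53 and 0.02 for Slc25a20 and between -0.25 and 0.18 for Tomm22, which was below without replicate 3 (limma, adjusted p = 0.0463). Mpc1 passed the threshold under quantile normalization (limma, adjusted p = 0.0294), with equal column medians (0.0298) and with the minimum mean (0.0387). Slc25a37 was below under quantile normalization (0.0253) and with equal column medians (0.0273), and Smdt1 was above under both (0.0378 and 0.0409) and with the spread of other probesets (0.0242). Tomm20 missed the threshold at its probeset with the lowest mean (0.0617). Slc25a10 and Slc25a13 lost their calls under quantile normalization (0.603 and 0.31) and with equal column medians (0.571 and 0.267). The causes were not tested. No paired analysis was possible because the samples form 1 group.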
